A study of Rattus norvegicus with 47 samples.

Results

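The colony-stimulating factor (CSF) group of genes comprised the ligands Csf1, Il34, Csf2 and Csf3 and the receptor genes Csf1r, Csf2ra, Csf2rb and Csf3r. They were selected by gene name and were 8 of the 30045 genes listed in each of 4 count tables. RNA had been sequenced from lung tissue and from whole blood of male Fischer 344 rats, an inbred strain whose age the labels do not state. The rats had inhaled crystalline silica dust (Min-U-Sil 5, 15 mg/m3) or filtered air in whole-body exposures of 6 h on each of 5 days. The groups were lung and blood of silica-exposed rats and of air-exposed rats, each 1 day and 6 months after the exposure. Every group held 6 libraries, except air lung at 6 months with 5, for 47 libraries in all. Treatment and exposure chamber cannot be told apart, because the labels do not give chambers.

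M-CSF, encoded by Csf1, and IL-34 both bind the receptor tyrosine kinase encoded by Csf1r and sustain monocytes and macrophages. GM-CSF, encoded by Csf2, signals through an alpha chain (Csf2ra) paired with the common beta chain (Csf2rb), which the IL-3 and IL-5 receptors also use. In the lung GM-CSF is required for the maturation of alveolar macrophages and for their clearance of surfactant. G-CSF, encoded by Csf3, acts through Csf3r and drives the production and release of neutrophils.

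Promoter windows of 4 of the 8 genes were held in a RefSeq table of the rat assembly GRCr8, each running from 250 bases before to 50 bases after the annotated start. They are shown because each of these genes was called in at least 1 lung comparison, and because they cover a ligand and the receptors of 3 different CSFs. The windows were chr10:38889624-38889923 (minus strand) for Csf2, chr14:118068-118367 (minus strand) for Csf2ra, chr18:56834129-56834428 (plus strand) for Csf1r and chr5:143582970-143583269 (plus strand) for Csf3r. The sequences run 5′ to 3′ along the gene, and capitals mark matches to the motifs searched.
Csf2: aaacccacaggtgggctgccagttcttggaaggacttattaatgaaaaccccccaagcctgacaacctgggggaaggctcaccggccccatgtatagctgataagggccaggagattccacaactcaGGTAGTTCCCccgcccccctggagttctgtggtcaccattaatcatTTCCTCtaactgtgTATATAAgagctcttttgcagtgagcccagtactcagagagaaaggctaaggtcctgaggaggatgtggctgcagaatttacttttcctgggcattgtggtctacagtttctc
Csf2ra: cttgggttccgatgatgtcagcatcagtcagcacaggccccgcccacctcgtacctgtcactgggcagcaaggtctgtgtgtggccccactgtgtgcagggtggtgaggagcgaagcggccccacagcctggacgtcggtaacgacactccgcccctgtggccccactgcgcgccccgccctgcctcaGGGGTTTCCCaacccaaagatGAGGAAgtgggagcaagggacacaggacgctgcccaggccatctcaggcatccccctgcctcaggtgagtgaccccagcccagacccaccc
Csf1r: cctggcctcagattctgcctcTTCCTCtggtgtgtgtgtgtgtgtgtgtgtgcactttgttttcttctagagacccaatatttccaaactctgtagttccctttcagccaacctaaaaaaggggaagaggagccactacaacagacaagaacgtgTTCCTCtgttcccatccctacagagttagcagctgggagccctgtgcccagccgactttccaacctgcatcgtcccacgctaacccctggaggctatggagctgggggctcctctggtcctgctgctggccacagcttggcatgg
Csf3r: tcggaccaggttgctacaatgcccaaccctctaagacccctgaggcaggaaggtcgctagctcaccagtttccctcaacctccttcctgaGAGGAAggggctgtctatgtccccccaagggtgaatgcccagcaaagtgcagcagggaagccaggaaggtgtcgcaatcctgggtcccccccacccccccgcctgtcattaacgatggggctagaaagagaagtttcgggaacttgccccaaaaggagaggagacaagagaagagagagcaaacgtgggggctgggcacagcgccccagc
The motifs were searched on both strands. They were GGGANNNNCC for NF-kB, GAGGAA for Ets factors such as PU.1 (the product of Spi1), TGANTCA for AP-1 and TATATAA for a TATA box. The Csf2 window held an NF-kB match starting 123 bases before the start site, an Ets match at 77 bases and a TATA match at 63 bases. The Csf2ra window held an NF-kB match at 62 bases and an Ets match at 41 bases before the start site. The Csf3r window held 1 Ets match, at 160 bases, and the Csf1r window held 2, at 229 and 95 bases. The AP-1 letters were in 0 of the 4 windows, and 0 pairs of matches overlapped. Among 33469 promoter windows of this length, 19.3% held the NF-kB letters, 27.6% the Ets letters, 7.33% the AP-1 letters and 3.93% the TATA letters, so single matches are a description only.

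Library totals ran from 9643524 to 25875975 estimated counts. Levels are given as counts-per-million (CPM) scaled by TMM factors within each table, and levels of different genes are not compared because CPM is not scaled by gene length. A floor of 3 counts per library corresponded to 0.116 to 0.311 CPM and covers counting error only. The tissues carried their own markers. The summed level of 8 alveolar type 2 genes was 21546 to 37810 CPM over the lung libraries and 179 to 255 CPM over the blood libraries. For 8 erythroid genes it was 2833 to 5795 CPM in lung and 41614 to 95508 CPM in blood. The sum of 10 fibroblast and smooth muscle genes reached at most 1.4 CPM in blood. Differences compare silica with air, as log2 fold changes with their SE from edgeR's quasi-likelihood test, with p-values adjusted by the Benjamini-Hochberg method over all genes tested and a threshold of 0.05.

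In lung, ligands and receptors of the family moved in both directions. At 1 day 7 of the 8 genes passed the filter on low counts, and 4 rose and 2 fell in silica lungs. Over all genes tested, 8.39% rose and 5.72% fell. The median difference was log2 0.57 over the 7 genes, beside -0.0024 over all genes tested. At 6 months 7 genes passed the filter, and 3 rose and 1 fell, against 9.84% rising and 6.38% falling over all genes. The 6-month median difference was log2 0.34, beside -0.0080 over all genes. Silica and air libraries did not overlap at 1 day for 5 of the 7 genes (Csf1, Csf2, Csf2rb and Csf3r higher, Csf1r lower), which held for 7.79% of all genes. At 6 months they did not overlap for 3 of the 7 (Csf1, Csf2ra and Csf2rb higher), against 10.5% of all genes.

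**Figure D1:**
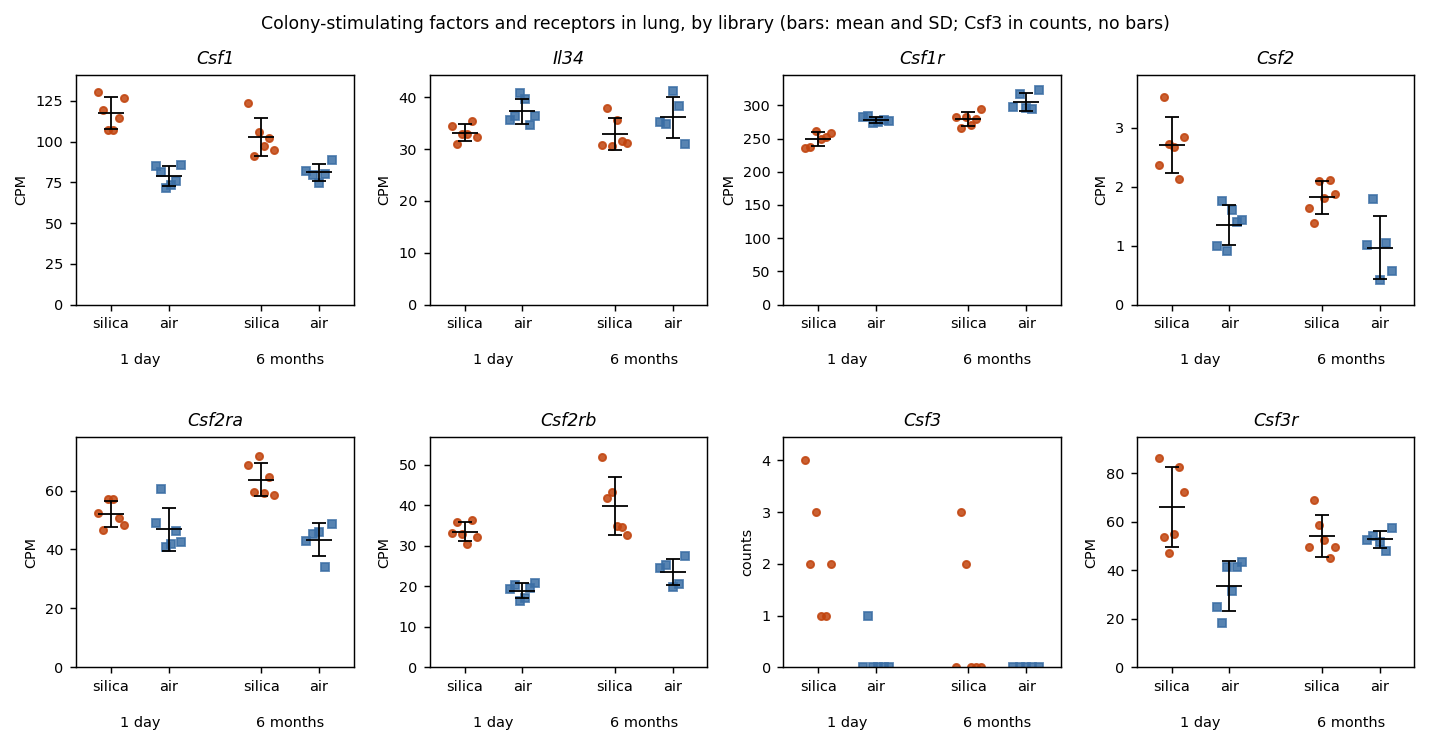
Levels of the 8 genes in lung libraries, in CPM (Csf3 in counts). Each point is 1 library, silica left of air at 1 day and at 6 months, and bars give the mean and SD. Csf1 and Csf2rb separate silica from air at both times, Csf2, Csf3r and Csf1r at 1 day, and Csf2ra at 6 months. Csf1r is the one that lies lower in silica. Csf3r at 1 day has 47.1 to 86.1 CPM in silica and 18.2 to 43.5 CPM in air lungs.

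The transcript of the ligand Csf1 rose in silica lungs at both times. At 1 day the lowest, median and highest Csf1 levels were 107, 117 and 130 CPM in silica lungs, against 71.4, 78.6 and 85.8 CPM in air lungs. The 6 silica lungs did not reach down to any of the 6 air lungs, and the difference was log2 0.57 ± 0.061 (adjusted p = 2.74e-05). At 6 months the levels were 91.0, 99.9 and 124 CPM in silica lungs, against 82.1, 79.2, 74.8, 80.1 and 88.9 CPM in the 5 air lungs. The groups again did not overlap although the lowest silica lung lay close to the highest air lung. The difference was log2 0.34 ± 0.072 (adjusted p = 0.00710). The change of the Csf1 difference between the times, 6 months minus 1 day, was -0.23 ± 0.097 and missed the threshold (adjusted p = 0.301).

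Il34, the second ligand of the same receptor, fell by a small margin in silica lungs at 1 day. At 1 day its lowest, median and highest levels were 31.0, 33.0 and 35.5 CPM in silica lungs, against 34.7, 36.4 and 40.9 CPM in air lungs. Of the silica lungs, 5 of 6 lay below every air lung. Il34 fell by 0.16 ± 0.049 on the log2 scale (adjusted p = 0.0355). The call was lost when all 4 lung groups were fitted together (adjusted p = 0.0702), and without any 1 of 6 libraries: air 39 or 40 (0.0593 and 0.0662), or silica 44, 45, 46 or 48 (0.0737, 0.0626, 0.0639 and 0.0741). At 6 months Il34 had 30.6, 31.5 and 38.0 CPM in silica lungs, against 35.2, 34.9, 41.3, 38.2 and 31.0 CPM in air lungs. These ranges overlapped, and the difference of log2 -0.13 ± 0.078 missed the threshold (adjusted p = 0.293).

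Csf1r, the receptor for both ligands, fell in silica lungs. At 1 day its lowest, median and highest levels were 235, 251 and 262 CPM in silica lungs, against 273, 277 and 284 CPM in air lungs. Every silica lung lay below every air lung, although the difference was small, log2 -0.16 ± 0.032 (adjusted p = 0.00380). At 6 months the levels were 265, 280 and 295 CPM in silica lungs, against 297, 318, 296, 294 and 322 CPM in air lungs. Of the silica lungs 5 of 6 lay below every air lung, and the difference was log2 -0.13 ± 0.037 (adjusted p = 0.0309). That 6-month call was lost without the low-count filter (adjusted p = 0.0589). It was also lost without air lung 51 or 54 (0.0679 and 0.0646) or silica lung 59 or 61 (0.0581 and 0.0518).

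Those markers of macrophages, the main cells that carry this receptor, that passed the test moved in the opposite direction to Csf1r. Of 10 monocyte and macrophage genes tested, 6 rose and 0 fell at 1 day by edgeR and 7 rose and 0 fell at 6 months, among them the lysosomal gene Cd68 and the complement genes C1qa, C1qb and C1qc. Of the 12 genes on that list, 2 (Adgre1 and Ccr2) were not found by name, and 0 of the others were at 0 in all lung libraries. Their summed level was 24233 to 33092 CPM in silica and 24030 to 29634 CPM in air lungs at 1 day (exact permutation p = 0.0541, adjusted 0.148 over 52 tests). At 6 months it was 33725 to 46244 CPM in silica and 22633 to 29828 CPM in air lungs (exact permutation p = 0.00216, adjusted 0.0125). Lyz2, which alveolar type 2 cells also express, supplied most of that sum. Without Lyz2, a choice made after the data were seen, the sum was 542 to 710 CPM in silica and 456 to 655 CPM in air lungs at 1 day (exact permutation p = 0.139, adjusted 0.300). The 6-month sum was 662 to 837 CPM in silica and 498 to 590 CPM in air lungs (exact permutation p = 0.00216, adjusted 0.0125). Endothelial markers moved the same way as Csf1r: 4 of 8 fell at 1 day and 8 of 8 at 6 months. Their sum was 3693 to 4069 CPM in silica and 4047 to 4442 CPM in air lungs at 1 day, and 3289 to 3850 and 4117 to 4548 CPM at 6 months, with 0 genes at 0. Their part in the Csf1r result was not tested. In bulk tissue, fewer cells of a type and less RNA per cell cannot be told apart.

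Csf2, the GM-CSF ligand, had few counts in lung and rose after silica at 1 day. At 1 day its lowest, median and highest levels were 2.12, 2.70 and 3.52 CPM in silica lungs, against 0.908, 1.419 and 1.75 CPM in air lungs. Those levels rested on 28 to 51 counts per silica library and 11 to 37 counts per air library. Every silica lung lay above every air lung, and Csf2 rose by log2 1.00 ± 0.18 (adjusted p = 0.00176). At 6 months it had 1.384, 1.84 and 2.11 CPM in silica lungs, against 1.01, 1.78, 0.413, 1.05 and 0.565 CPM in air lungs. Of the silica lungs 4 of 6 lay above every air lung. Air lung 51 alone reached into the silica range. The 6-month difference was log2 0.91 ± 0.29 and missed the threshold (adjusted p = 0.0529). It passed with DESeq2 (adjusted p = 0.0216), limma-voom (0.0301), all 4 lung groups in 1 model (0.0152) and without air lung 51 (log2 1.23, adjusted p = 0.0109).

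Both chains of the GM-CSF receptor rose in silica lungs, Csf2rb at both times and Csf2ra at 6 months. Csf2rb, the common beta chain, had the smallest p of the 7 tested genes at 1 day. Its lowest, median and highest levels were 30.4, 33.0 and 36.5 CPM in silica lungs, against 16.3, 19.4 and 20.9 CPM in air lungs. The lowest silica lung lay well above the highest air lung, at log2 0.82 ± 0.066 (adjusted p = 2.43e-06). Csf2rb at 6 months had 32.8, 38.4 and 51.9 CPM in silica lungs, against 24.6, 25.3, 19.9, 20.5 and 27.5 CPM in air lungs. The groups stayed apart, with silica lung 58 the highest of all, and the difference was log2 0.76 ± 0.12 (adjusted p = 0.00160).

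Csf2ra, the alpha chain that gives the receptor its specificity for GM-CSF, rose at 6 months. At 1 day its lowest, median and highest levels were 46.6, 51.5 and 57.2 CPM in silica lungs, against 40.8, 44.4 and 60.4 CPM in air lungs. The ranges overlapped, and air lung 38 was the highest of the 12. The 1-day difference of log2 0.15 ± 0.089 missed the threshold (adjusted p = 0.287), and without air lung 38 it was log2 0.24 (adjusted p = 0.0276). At 6 months Csf2ra had 58.6, 61.9 and 71.8 CPM in silica lungs, against 43.0, 45.3, 45.8, 34.1 and 48.6 CPM in air lungs. The groups did not overlap, and the difference was log2 0.56 ± 0.085 (adjusted p = 0.00104). The change between the times was log2 0.41 ± 0.13 for Csf2ra and missed the threshold (adjusted p = 0.132).

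Csf3, the G-CSF ligand, was near the floor in every lung library and did not pass the filter. At 1 day its counts were 4, 2, 3, 1, 1 and 2 in silica lungs 43 to 48, and 1 air lung of 6 had 1 count. All 6 silica lungs had at least 1 count. Scaled to CPM, 5 of 6 lay above every air lung. One of these, silica lung 47, had 1 count, the same count as air lung 38, so only library size sets that order. At 6 months silica lungs 59 and 60 had 3 and 2 counts, and the remaining 4 silica lungs and all 5 air lungs had 0. These counts are not scaled for the library totals, whose median was higher in the silica lungs. No fold is given, since nearly all of these counts are at or under the floor of 3. Without the low-count filter Csf3 passed edgeR's threshold at 1 day (adjusted p = 0.0169) and missed it at 6 months (adjusted p = 0.310).

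Csf3r, the receptor for G-CSF on neutrophils, rose in lung at 1 day. Its lowest, median and highest levels were 47.1, 63.6 and 86.1 CPM in silica lungs, against 18.2, 36.4 and 43.5 CPM in air lungs. The groups did not overlap, but both were wide. The difference was log2 0.98 ± 0.21 (adjusted p = 0.00549). At 6 months Csf3r had 45.05, 51.1 and 69.0 CPM in silica lungs, against 52.4, 54.3, 51.6, 47.8 and 57.6 CPM in air lungs. The silica range enclosed the air range, and the difference was log2 0.04 ± 0.096 (adjusted p = 0.828). The change of the Csf3r difference between the times was log2 -0.93 ± 0.25 and missed edgeR's threshold (adjusted p = 0.0678). It passed with DESeq2 (adjusted p = 0.0326) and without air lung 42 (0.0370) or silica lung 45 (0.0350) of the 1-day groups. In that comparison 0 of the 7 genes tested were called by edgeR, 3 had an unadjusted p under 0.05, and DESeq2 called 1 and limma-voom 0. Over all genes edgeR called 1.12% larger and 0.253% smaller at 6 months.

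Neutrophil markers as a sum stood higher in silica lungs at both times. At 1 day 7 of 9 tested rose and 0 fell, with a median of log2 0.98. Their summed level, over 12 genes of which 0 were at 0, was 325 to 665 CPM in silica and 130 to 234 CPM in air lungs (exact permutation p = 0.00216, adjusted 0.0125 over 52 tests). At 6 months 5 of 10 tested rose and 0 fell, and the sum was 452 to 633 CPM in silica and 198 to 308 CPM in air lungs (exact permutation p = 0.00216, adjusted 0.0125), with Ltf at 0 in all 11 libraries. The 5 that rose at 6 months were Lcn2, S100a9, S100a8, Trem1 and Ncf4. S100a9 supplied most of the sum in silica lungs. Its means were 277 CPM in silica and 75.2 CPM in air lungs at 1 day, and 342 and 120 CPM at 6 months. Means of the sum were 484 and 170 CPM at 1 day, and 555 and 253 CPM at 6 months. Cxcr2, a chemokine receptor of neutrophils, differed by log2 0.26 ± 0.11 at 6 months (adjusted p = 0.141), and the granule protease gene Mmp8 by 0.0015 ± 0.17 (adjusted p = 0.993). Of erythroid genes, which blood brings into a lung sample, 0 of 6 tested rose and 5 fell at 1 day. At 6 months 0 of 8 tested rose and 1 fell. The parts of neutrophil number and of blood content in the Csf3r result were not tested.

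**Figure D2:**
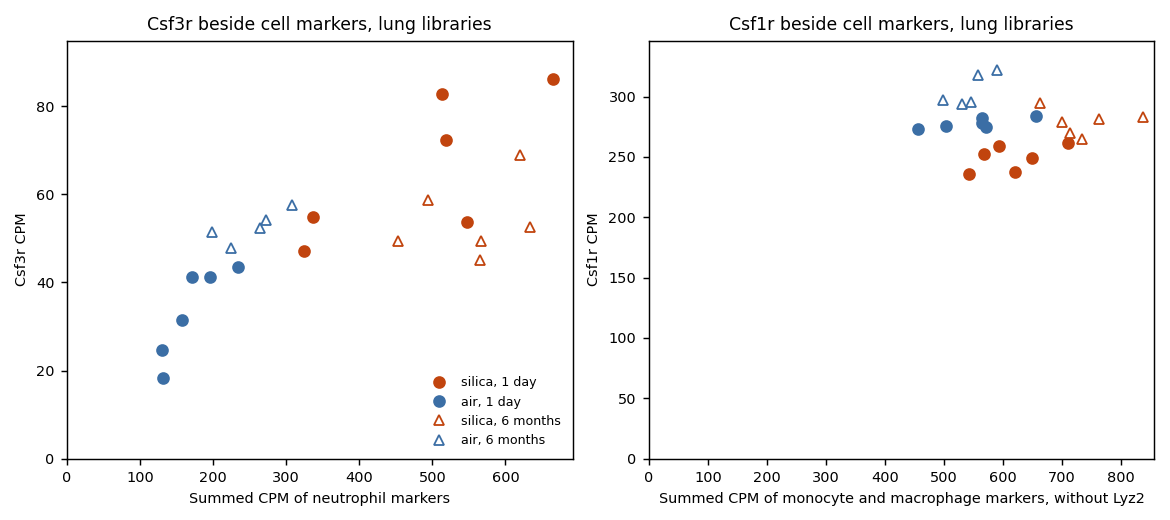
Left, Csf3r CPM against the summed CPM of neutrophil markers in each lung library. Right, Csf1r CPM against the summed CPM of monocyte and macrophage markers without Lyz2. Filled circles are 1 day and open triangles 6 months, silica in orange and air in blue. At 6 months silica lungs had higher neutrophil sums than air lungs (452 to 633 against 198 to 308 CPM) with overlapping Csf3r. S100a9 supplied most of that sum in silica lungs, with means of 342 CPM in silica and 120 CPM in air lungs. At 1 day Csf1r was lower in silica lungs (235 to 262 against 273 to 284 CPM) with overlapping macrophage marker sums.

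In whole blood only 5 of the 8 genes passed the filter, the ligand Csf1 and the receptor genes Csf1r, Csf2ra, Csf2rb and Csf3r. Il34 had 0 to 5 counts per blood library, Csf2 had 1 count in 1 of 24 blood libraries and Csf3 had 0 counts in all 24. A count of 0 allows up to 3 counts per library, or 0.164 to 0.251 CPM at 1 day and 0.156 to 0.311 CPM at 6 months. By edgeR 0 of the 5 genes passed the threshold at 1 day, when 1.19% of all genes rose and 0.18% fell, and 0 at 6 months, when 0.0086% were called. Of the 5, 2 had an unadjusted p under 0.05 at 1 day and 2 at 6 months. DESeq2 called 1 of them at each time, and limma-voom called 0.

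The blood gene nearest to the threshold at 1 day was Csf3r. Its lowest, median and highest levels were 307, 341 and 367 CPM in silica blood, against 215, 285 and 298 CPM in air blood. All 6 silica libraries lay above all 6 air libraries, as for 1.93% of all genes, and it was the 1 member of the 5 of which this held. The difference was log2 0.31 ± 0.078 (adjusted p = 0.0678 with edgeR and 0.00690 with DESeq2). Neutrophil markers were higher in the same blood: 4 of 9 tested rose and 0 fell, and the sum was 3263 to 4039 CPM in silica and 1990 to 2517 CPM in air blood (exact permutation p = 0.00216, adjusted 0.0125), with 0 genes at 0. At 6 months Csf3r had 362, 431 and 586 CPM in silica blood, against 300.2, 385 and 419 CPM in air blood. These ranges overlapped, and the difference was log2 0.26 ± 0.12 (adjusted p = 0.563). The neutrophil sum at 6 months was 3113 to 4835 CPM in silica and 2986 to 3664 CPM in air blood (exact permutation p = 0.0866, adjusted 0.196), again with 0 genes at 0.

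At 6 months the blood gene with the smallest p was Csf2rb. It had 52.2, 62.0 and 70.0 CPM in silica blood, against 38.6, 48.0 and 52.9 CPM in air blood. Of the silica libraries 5 of 6 lay above every air library. The difference was log2 0.40 ± 0.083 (adjusted p = 0.539 with edgeR and 0.0271 with DESeq2). No member's libraries were fully apart at 6 months, a pattern that 0.378% of all genes showed. At 1 day Csf2rb had 33.4, 36.7 and 40.9 CPM in silica blood, against 30.2, 35.7 and 39.0 CPM in air blood. These overlapped almost wholly (log2 0.05 ± 0.066, adjusted p = 0.803). The change between the times was log2 0.36 ± 0.12 (adjusted p = 0.214). In that comparison edgeR called 0% of all genes, 1326 of which had an unadjusted p under 0.05, DESeq2 called 88 genes and limma-voom 0.

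The remaining 3 genes overlapped between silica and air blood at both times. Csf1 had 30.1 to 50.01 CPM in silica and 31.0 to 40.3 CPM in air blood at 1 day (log2 0.17 ± 0.11, adjusted p = 0.561). The 6-month levels were 35.7 to 64.5 CPM in silica and 34.9 to 54.3 CPM in air blood (log2 0.12 ± 0.14, adjusted p = 0.810). Csf1r, which marks blood monocytes, had 122 to 266 CPM in silica and 161 to 321 CPM in air blood at 1 day (log2 -0.27 ± 0.19, adjusted p = 0.598). Its 6-month levels were 143 to 280 CPM in silica and 202 to 272 CPM in air blood (log2 -0.22 ± 0.13, adjusted p = 0.639). Its spread within blood groups was the widest of the 5 genes at 1 day, with a coefficient of variation of 28.4% in silica and 26.6% in air libraries. Monocyte and macrophage markers summed to 4542 to 6965 CPM in silica and 4499 to 5569 CPM in air blood at 1 day (exact permutation p = 0.0303, adjusted 0.105). Without Lyz2, a choice made after the data were seen, they summed to 53.0 to 108 CPM in silica and 62.1 to 123 CPM in air blood at 1 day (exact permutation p = 0.377, adjusted 0.632), with 0 genes at 0. The 6-month sum with Lyz2 was 4822 to 6011 CPM in silica and 5565 to 6717 CPM in air blood (exact permutation p = 0.0498, adjusted 0.144). Without Lyz2 the 6-month sum was 50.2 to 97.4 CPM in silica and 69.3 to 105 CPM in air blood (exact permutation p = 0.190, adjusted 0.381). Csf2ra had 54.1 to 63.6 CPM in silica and 45.1 to 58.9 CPM in air blood at 1 day (log2 0.17 ± 0.069, adjusted p = 0.308). At 6 months it had 55.1 to 61.2 CPM in silica and 50.1 to 61.2 CPM in air blood (log2 0.04 ± 0.057, adjusted p = 0.851).

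**Figure D3:**
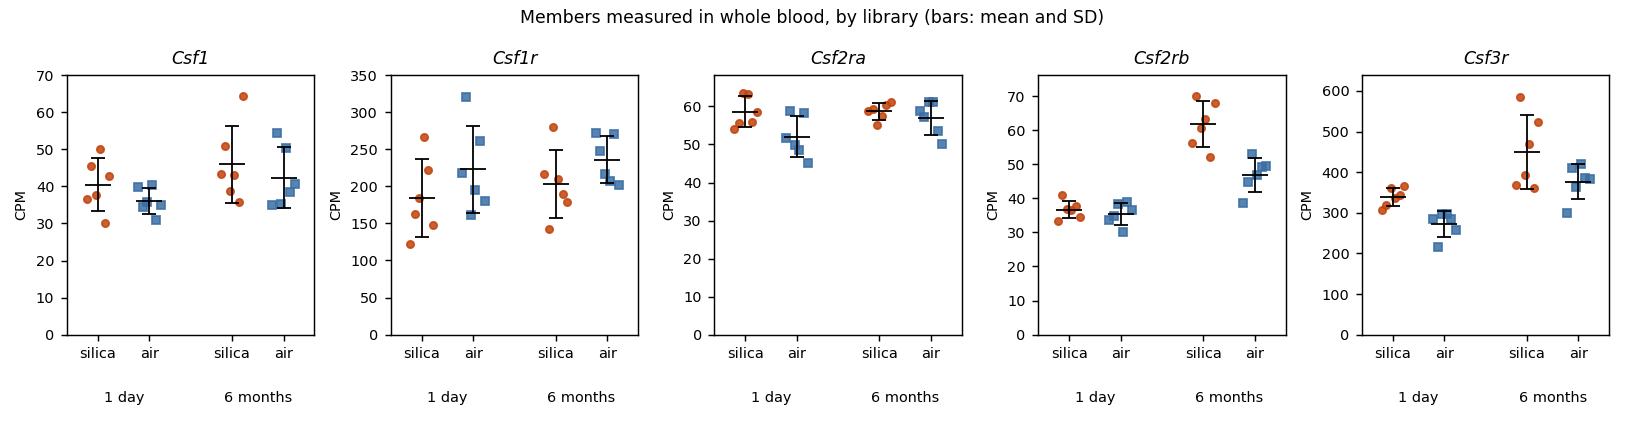
CPM of the 5 genes that passed the filter in whole blood. Each point is 1 library, silica left of air at 1 day and at 6 months, and bars give the mean and SD. Csf3r at 1 day is the panel in which silica and air libraries do not overlap (307 to 367 against 215 to 298 CPM).

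The tissues were then compared for the silica difference itself, lung minus blood. At 1 day Csf2rb differed between the tissues, with a silica difference of log2 0.82 in lung and 0.05 in blood. The lung value was larger by log2 0.72 ± 0.096 (adjusted p = 4.27e-05). It was the only one of the 5 genes measured in both tissues to pass, where 4.03% of all genes did. That share is over the 15989 genes of the 4-group fit, which include genes at the floor in blood, such as Il34 and Csf2. Csf1 (log2 0.36 ± 0.13, adjusted p = 0.117) and Csf3r (log2 0.62 ± 0.23, adjusted p = 0.143) missed the threshold. Without silica blood library 46 the Csf1 value passed (log2 0.47, adjusted p = 0.0292). At 6 months Csf2ra was the 1 gene of the 5 that passed, against 3.53% of all 15790 genes fitted, again with genes at the floor in blood. Its silica difference was log2 0.56 in lung and 0.04 in blood, larger in lung by log2 0.49 ± 0.098 (adjusted p = 0.00601). Csf2rb at 6 months was larger in lung by log2 0.33 ± 0.15 (adjusted p = 0.259). Il34 and Csf2 were at the floor in blood, so no such difference is given for them.

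**Figure D4:**
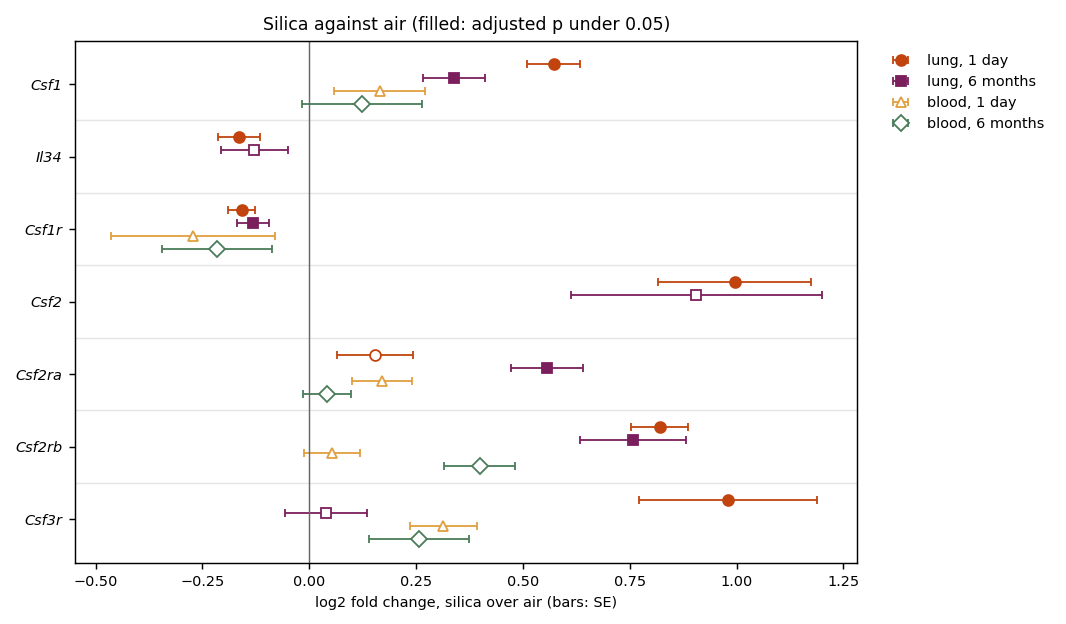
Log2 fold change of silica over air for each gene that passed the filter, with bars for the SE. Circles are lung at 1 day, squares lung at 6 months, triangles blood at 1 day and diamonds blood at 6 months, and filled symbols passed an adjusted p of 0.05 in edgeR. Csf1, Csf2rb and Csf1r are filled at both times in lung, Csf2ra in lung at 6 months, Csf2, Csf3r and Il34 in lung at 1 day, and none in blood.

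The order of levels over the 8 groups differed between genes, with levels scaled within each table. Csf1 stood highest in silica lungs, at 117 ± 9.85 CPM at 1 day and 103 ± 11.6 CPM at 6 months (SD, n = 6 each). Air lungs followed at 81.0 ± 5.15 CPM at 6 months (n = 5) and 78.8 ± 6.18 CPM at 1 day (n = 6). The blood groups came last, at 36.0 to 46.0 CPM, and neighbours among them overlapped. For Csf3r the tissues stood the other way round: all 4 blood groups lay above all lung groups. Mean Csf3r in blood was 5.13 times that in lung for silica rats and 8.17 times for air rats at 1 day, and 8.33 and 7.15 times at 6 months.

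Csf2rb was highest in blood at 6 months, at 61.8 ± 6.80 CPM in silica and 46.9 ± 4.95 CPM in air rats, and lowest in air lungs at 1 day, at 18.9 ± 1.83 CPM. Its neighbours in that order overlapped except silica lung at 1 day, which lay above air lung at 6 months. Csf2ra spanned a narrow range, from 63.7 ± 5.59 CPM in silica lung at 6 months to 43.3 ± 5.53 CPM in air lung at 6 months, and every neighbouring pair overlapped. Csf1r means ran from 305 ± 13.4 CPM in air lung at 6 months to 184 ± 52.4 CPM in silica blood at 1 day. For Csf1r the one gap between neighbours was that of air and silica lung at 1 day. Il34 and Csf2 passed the filter in lung alone, with Il34 means of 33.0 to 37.3 CPM whose neighbours overlapped. Csf2 means ran from 2.71 ± 0.479 CPM in silica lung at 1 day to 0.965 ± 0.535 CPM in air lung at 6 months. The 1-day silica lungs barely cleared the 6-month silica lungs, with a lowest Csf2 level of 2.124 CPM against a highest of 2.113 CPM.

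Genes that varied most like each member were taken after group means had been subtracted, over 23 lung or 24 blood libraries. These correlations are descriptions across libraries that share depth and composition. In lung, Csf2ra was most like Atp13a2 (r = 0.87), Spi1 (0.87), which encodes PU.1, and the lysosomal gene Psap (0.87). Csf2rb was most like Rnf149 (0.87), the monocyte chemokine gene Ccl7 (0.86) and Rab32 (0.86). Csf1r was most like the integrin genes Itgax (0.85) and Itgal (0.84) and the transporter gene Slc43a2 (0.84). Csf3r was most like Ifit1lb (0.93), Pla2g7 (0.90) and Cxcr2 (0.86). The ligands had lower leading values: Csf1 with Ddx19b (0.78), Snx5 (0.77) and P2ry2 (0.77), Il34 with Stk25 (0.78), Tmem204 (0.77) and Itpkc (0.76), and Csf2 with Alkbh6 (0.76), Usp13 (0.75) and Uchl3 (0.71).

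In blood Csf3r was most like Fbxl5 (r = 0.96), Ppp1r3d (0.95) and Siglec8 (0.95), and Csf1r was most like Pld4 (0.96), Dram1 (0.95) and Adrbk2 (0.95). Csf1 was most like Dusp1, Ripk3 and Myadm (0.80 each), Csf2rb like Xiap (0.83) and RGD1307182 (0.78), and Csf2ra like Plekhg3 (0.74), Rnf41 (0.73) and Gnb2 (0.71). Among the members themselves, the highest value in lung was that of Csf1 and Csf2rb (0.65). The lowest were those of Il34 with Csf1r (-0.59) and with Csf1 (-0.57). In blood the highest were those of Csf3r with Csf1 (0.56) and with Csf2rb (0.52).

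Around the family, 75 further genes on 7 lists were examined in the same fits. At 1 day 68 of them were tested in lung, and 15 rose and 5 fell, with a median of log2 0.06. Over all genes tested at 1 day, 8.39% rose and 5.72% fell, and the counts of each list below are read against these shares. At 6 months 25 of 68 rose and 2 fell, with a median of log2 0.15, against 9.84% rising and 6.38% falling over all genes. Of 10 tested genes that induce CSF expression, 3 rose and 0 fell at 1 day, with a median of log2 0.09. They were Nfkbiz (log2 0.87 ± 0.11, adjusted p = 1.60e-04), a regulator of NF-kB target genes, Il1b (log2 1.17 ± 0.18, adjusted p = 5.45e-04), which induces G-CSF and GM-CSF in stromal cells, and the adaptor gene Myd88. At 6 months 2 of 10 rose and 0 fell (median log2 0.07), Nfkbiz (log2 0.38 ± 0.087, adjusted p = 0.00989) and Myd88 (log2 0.17 ± 0.049, adjusted p = 0.0360). The silica difference of Il1b fell by 1.05 on the log2 scale between 1 day and 6 months, with an SE of 0.23 (adjusted p = 0.0201).

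Of 19 signalling genes that act next to the receptors, 3 rose and 1 fell at 1 day (median log2 0.07), against 8.39% and 5.72% of all genes. Stat3 (log2 0.19 ± 0.026, adjusted p = 2.94e-04), a transcription factor activated by G-CSF, and the Src-family kinase gene Fgr (log2 0.33 ± 0.059, adjusted p = 0.00181) had the smallest p-values. Stat5a, which GM-CSF activates, was the 1 that fell. At 6 months 6 of 19 rose and 0 fell (median log2 0.14), among them the myeloid kinase gene Lyn (log2 0.18 ± 0.036, adjusted p = 0.00488). Of 7 feedback genes 2 rose and 0 fell at 1 day (median log2 0.22): Pim1, a kinase gene induced by STAT5 (log2 0.64 ± 0.11, adjusted p = 0.00116), and Cish, a STAT5-induced inhibitor (log2 0.39 ± 0.085, adjusted p = 0.00640). At 6 months 1 rose and 1 fell (median log2 0.17), Pim1 (log2 0.55 ± 0.11, adjusted p = 0.00409) and the ERK phosphatase gene Dusp6 (log2 -0.30 ± 0.059, adjusted p = 0.00514).

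Cytokines and receptors related to the family showed 0 calls by edgeR at either time among 5 tested in lung. Of these 1 had an unadjusted p under 0.05 at 1 day and 2 at 6 months, and DESeq2 called 0 at 1 day and 1, lower, at 6 months, while limma-voom called 0. The medians were log2 0.03 and 0.01 at 1 day and 6 months. Il3, Il5 and Il5ra did not pass the filter. The list of other binding partners of CSF1R ligands and of sheddases had 0 calls of 5 at 1 day by edgeR, DESeq2 and limma-voom, 0 of them at an unadjusted p under 0.05 (median log2 0.04). At 6 months 3 of 5 rose and 0 fell (median log2 0.21), led by Adam17, the protease that sheds CSF1R (log2 0.30 ± 0.060, adjusted p = 0.00541), and Trem2, a receptor of macrophages (log2 0.35 ± 0.082, adjusted p = 0.0110). Myeloid transcription factors were split at 1 day, when 3 of 14 rose and 2 fell (median log2 -0.02). Bhlhe40 (log2 0.41 ± 0.069, adjusted p = 0.00121) and Irf8 (log2 0.32 ± 0.066, adjusted p = 0.00455), a factor for monocyte development, had the smallest p-values. At 6 months 8 of 14 rose and 0 fell (median log2 0.37), led by Bhlhe41 (log2 0.82 ± 0.089, adjusted p = 1.25e-04) and Cebpa (log2 0.41 ± 0.069, adjusted p = 0.00186).

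Genes that alveolar macrophages need GM-CSF to express, a role known from mouse, changed in both directions at 1 day and mostly upward at 6 months. At 1 day 4 of 9 tested rose and 3 fell (median log2 -0.20). The list includes Siglec5 as an assumed rat counterpart of mouse Siglecf, which the files do not establish, and without it 3 rose and 3 fell. Itgax, encoding CD11c, rose with means of 62.3 CPM in silica and 42.6 CPM in air lungs (log2 0.55 ± 0.066, adjusted p = 7.89e-05). Fabp4, a fatty acid-binding protein gene that PPAR-gamma induces, fell with means of 10.05 CPM in silica and 17.8 CPM in air lungs (log2 -0.82 ± 0.14, adjusted p = 0.00135). At 6 months 6 of 9 rose and 1 fell (median log2 0.55). Plet1 (log2 0.74 ± 0.083, adjusted p = 1.58e-04) and Itgax (log2 0.84 ± 0.095, adjusted p = 1.72e-04) had the smallest p-values. Car4 was the 1 that fell, as it had at 1 day (log2 -0.20 ± 0.059, adjusted p = 0.0346), and lung endothelium also expresses it. Which cells the transcripts of the other listed genes came from was not tested.

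The silica difference of 3 genes of that list was larger at 6 months than at 1 day, and 0 were smaller. Fabp4 changed most, by log2 2.09 ± 0.27 (adjusted p = 2.86e-04): its means at 6 months were 34.2 CPM in silica and 14.2 CPM in air lungs. Abcg1, a lipid exporter gene (log2 0.73 ± 0.13, adjusted p = 0.00531), and Pparg (log2 0.89 ± 0.17, adjusted p = 0.00831) were the others. Pparg, the transcription factor that GM-CSF induces in alveolar macrophages, had 15.3 CPM in silica and 20.8 CPM in air lungs at 1 day, and 23.6 and 17.2 CPM at 6 months. Alveolar type 2 markers also stood higher at 6 months, when 7 of 8 rose and 0 fell. Their sum was 30687 to 37810 CPM in silica and 21546 to 27163 CPM in air lungs (exact permutation p = 0.00216, adjusted 0.0125), with 0 genes at 0. The part of the macrophage and epithelial cell content in these results was not tested.

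**Figure D5:**
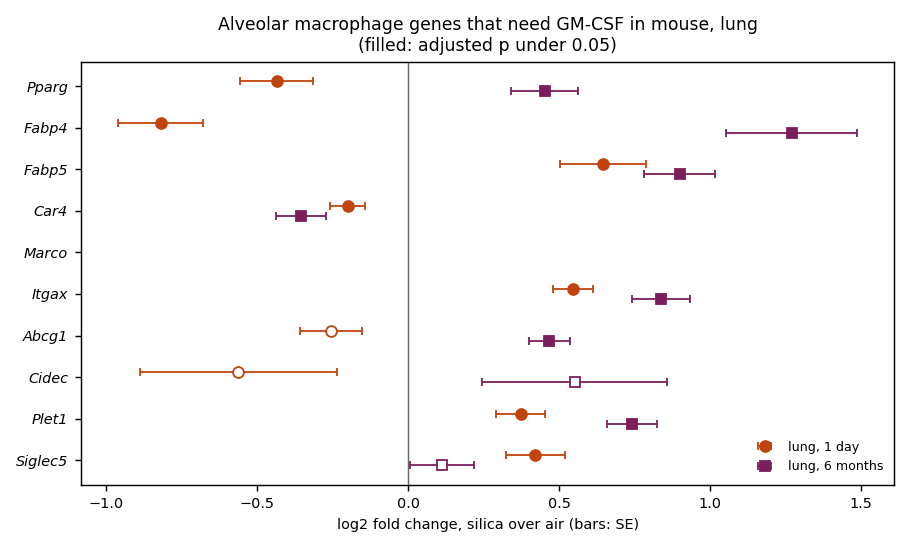
Log2 fold change of silica over air in lung for the 10 genes on the list of alveolar macrophage genes that need GM-CSF in mouse, with bars for the SE (circles 1 day, squares 6 months, filled where the adjusted p was under 0.05). Marco did not pass the filter. Pparg and Fabp4 lie below 0 at 1 day and above 0 at 6 months.

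In blood 61 of the 75 listed genes were tested at 1 day, and 2 rose and 0 fell. They were Il1b (log2 0.45 ± 0.090, adjusted p = 0.0249) and Siglec5 (log2 0.40 ± 0.077, adjusted p = 0.0207), whose place on its list is an assumption. Over all genes tested in blood at 1 day, 1.19% rose and 0.18% fell. Of the 61, 13 had an unadjusted p under 0.05, and DESeq2 called 5 higher and 1 lower. At 6 months edgeR, DESeq2 and limma-voom called 0 of 59, of which 4 had an unadjusted p under 0.05. The median difference was log2 -0.0072 at 1 day and 0.0071 at 6 months, beside -0.010 and -0.0087 over all genes tested.

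The differences between times and tissues were also read for the 75 listed genes. In lung 6 of 68 tested had a larger silica difference at 6 months than at 1 day, and 1 had a smaller one, with a median change of log2 0.05, against 1.12% and 0.253% of all genes. Among the transcription factors, the smallest p was that of Bhlhe41 (log2 0.90 ± 0.16, adjusted p = 0.00531), and Cebpa and Maf also passed. In blood 0 of 61 changed between the times by edgeR, with 8 at an unadjusted p under 0.05, and DESeq2 called 1 larger and 1 smaller and limma-voom 0.

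At 1 day 4 of 70 genes had a larger silica difference in lung than in blood and 2 a smaller one, with a median of log2 0.0062, where 4.03% of all genes differed in either direction. Nfkbiz (log2 0.83 ± 0.14, adjusted p = 0.00110), Itgax (log2 0.66 ± 0.12, adjusted p = 0.00179), Pim1 (log2 0.69 ± 0.17, adjusted p = 0.0173) and Irf4 (log2 0.45 ± 0.12, adjusted p = 0.0278) were the larger ones. Il17ra, an IL-17 receptor subunit gene, had a smaller one, with a lung minus blood value of log2 -0.25 ± 0.062 (adjusted p = 0.0207). Fabp4 was the other, at log2 -1.39 ± 0.38 (adjusted p = 0.0349), although it did not pass the filter in blood alone. At 6 months 6 of 69 were larger in lung and 0 smaller, with a median of log2 0.05, where 3.53% of all genes differed in either direction. Among them were Itgax (log2 0.84 ± 0.12, adjusted p = 4.46e-04), Abcg1 (log2 0.49 ± 0.097, adjusted p = 0.00600), Cebpa (log2 0.59 ± 0.12, adjusted p = 0.00622), Spi1 (log2 0.46 ± 0.11, adjusted p = 0.0192) and Pim1 (log2 0.52 ± 0.15, adjusted p = 0.0467).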

How the data were processed

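The data were 47 RNA libraries of lung or whole blood. Per the labels' protocols, blood RNA went through a globin depletion step, and mRNA libraries kept strand. Tools named in the submitters' processing notes, without role or order, were Salmon 1.10.1, STAR 2.6.1d, Trim Galore 0.6.7, cutadapt 3.4 and bcl2fastq 2.19, and the build was Rnor_6.0. Each of the 4 deposited tables covers 1 tissue at 1 time and holds each library's estimated counts, which the authors had not normalized. They were rounded to whole numbers here, and they can split reads between similar genes. All columns matched a sample title, with 0 left over.

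In 0 groups did libraries agree within sampling noise (chi-square per degree of freedom 3.76 to 35.3), so none was treated as a repeat deposit of another. This does not show that samples are independent, and p-values rest on the spread among them. Each table was fitted on its own in R 4.3.3 with edgeR 4.0.16, by its quasi-likelihood test on counts scaled by TMM. Genes were kept by filterByExpr (minimum count 10), p-values were adjusted over all genes tested by the Benjamini-Hochberg method, and the threshold was 0.05. SE was taken as the absolute log2 difference divided by the square root of the F statistic. Differences between times and between tissues were interactions over 4 groups. For marker sums the test was an exact permutation test (two-sided), whose smallest p was 0.00216, adjusted over 52 tests. Scripts were tested on simulated data.

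The genes and lists were chosen with earlier results of these data known. Named were all 8 members; of each pathway list, the 2 called genes with the smallest p in a comparison; and for each member the 3 genes with the highest correlation of log2 CPM (prior count 2) at a mean of at least 5 CPM. Some genes that this rule names are not reported here. A few further list genes (Stat5a, Myd88, Car4, Pparg, Abcg1 and markers) were chosen after their values were seen. Alternatives were DESeq2 1.42.0, limma-voom (limma 3.58.1), RLE and upper-quartile factors, no filter, a minimum count of 50, no globin, erythroid or mitochondrial RNA genes, all 4 groups of a tissue, each library left out, and the animal number as a block. Lung and blood titles share animal numbers, which the labels do not say mark the same rat. After subtracting group means, lung and blood libraries with the same number had correlations between -0.048 and 0.103 at 1 day, 1 of the 12 pairs exceeding 0.1. The 9 pairs at 6 months lay between -0.052 and 0.068. These values cannot show whether a number marks 1 rat, since pairs with different numbers were not compared and the tissues of a rat need not vary together. The main tissue comparisons treated libraries as unpaired, and the block on animal number was run as an alternative. Promoters came from RefSeq's GRCr8 table, and no coordinate was moved between builds.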

Additional observations from a re-analysis of the deposited data

Results flagged for a closer look

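Csf2rb stood out because its silica difference differed between tissues at 1 day: it was larger in lung than in blood by log2 0.72 (adjusted p = 4.27e-05, edgeR). Csf2ra stood out in the same way at 6 months, by log2 0.49 (adjusted p = 0.00601, edgeR). Among 48 sets of 5 or 6 libraries with a median above 3 counts, 0 held a library far from the others by Dixon's criterion, which chance meets in about 1 of 20 sets.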

How the results depend on the processing

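Over 353 values of single members under other settings, 344 kept their direction and their side of the threshold, as did 760 of 797 with 1 library left out. DESeq2 moved several counts: in blood at 1 day 361 genes and 1 member were called, at 6 months 3 genes and 1 member, in the lung time comparison 351 genes and 1 member, in the blood time comparison 88 genes, and in the tissue comparison at 6 months 1017 genes. With the replicate block on animal number, the tissue comparisons called 415 genes at 1 day and 210 at 6 months, and no member's call changed. In the lung time comparison Csf2 turned to log2 0.030 with limma-voom. In blood at 1 day the silica minus air mean of the macrophage marker sum turned to -11.3 CPM without Lyz2, added after the data were seen. The cause of these shifts was not tested.

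With each library left out in turn, 86 to 211 genes were called in blood at 1 day and 0 to 1 in blood at 6 months. Members called ran from 0 to 1 in the lung time comparison and from 1 to 2 in the tissue comparison at 1 day, and genes from 0 to 3 in the blood time comparison and 332 to 609 in the tissue comparison at 6 months. Differences that changed sign, all below the threshold, ran from log2 -0.050 to 0.085 for Csf3r in lung at 6 months. In the lung time comparison they ran from -0.011 to 0.090 for Il34, -0.27 to 0.24 for Csf2 and -0.14 to 0.0015 for Csf2rb. In the blood time comparison they ran from -0.16 to 0.056 for Csf1, -0.070 to 0.19 for Csf1r and -0.14 to 0.015 for Csf3r. In the tissue comparison they ran from -0.038 to 0.23 for Csf1r and -0.093 to 0.023 for Csf2ra at 1 day, and from -0.020 to 0.18 for Csf1r at 6 months.

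Depth limits Csf2 and Csf3 most: Csf2 rested on 5 to 51 counts per lung library, and Csf3 on 0 to 4. The 1-day call of Csf3 without the low-count filter rests on these few counts, and no size is given for its change.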
